A study of Homo sapiens with 21 samples.

Results

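HMLE cells on day 20 of TGFβ (d20) were compared with the same line on day 1 (d1), a long against a short exposure. The comparison took the 3 d20 and the 3 d1 libraries of a series of 21, and its members were the 13187 of 23201 gene symbols whose values averaged 10 or more over these 6 libraries, while the other 10014 symbols were under that limit. HMLE is an established line of human mammary epithelial cells, immortalized and of basal type, and all 6 libraries came from cells that were seeded at one density and given TGFβ, with no other agent and no genetic change named in the labels. The other timepoints were untreated cells (d0) and days 4, 7, 10 and 15, with 3 libraries each, and they enter here only as levels. No untreated culture kept for 20 days was analysed here, so days of TGFβ and time in culture cannot be told apart.

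TGFβ is a secreted cytokine that binds a pair of receptor kinases, which phosphorylate SMAD transcription factors and so switch on target genes within hours. In epithelial cells a lasting signal drives epithelial-to-mesenchymal transition (EMT), in which transcription factors of the ZEB, SNAI and TWIST families repress the genes of cell junctions, and the cells take up a program of matrix, N-cadherin and intermediate filament genes. Breast epithelial cells can hold intermediate states, with epithelial and mesenchymal genes expressed side by side.

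Each value is a normalised read count, the reads of a gene divided by one size factor per library, and the 6 libraries held between 19935676 and 21720711 reads. On the log2 scale, the root mean square difference over the genes tested was 0.209 to 0.226 for libraries of one day, against 0.473 between the d1 and d20 means. The spread within a day was above counting error, with a mean chi-square per gene of 1.37 to 2.30 between pairs of libraries where counting error alone gives 1. The p-values below thus rest on a spread of the same order as counting error, between libraries that the study describes as biological triplicates. Markers of the basal line stood at high values on both days, among them *KRT5*, a basal keratin, with 148585, 146186 and 142371 at d1 and 108717, 109661 and 109769 at d20, and *TP63*, the basal master transcription factor, with 4945, 4943 and 4889 at d1 and 3283, 3300.5 and 3517 at d20. In bulk RNA, fewer cells of a state and less RNA per cell cannot be told apart.

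Counting genes that differed 2-fold or more with an adjusted p under 0.05, 373 genes (2.83% of those tested) were higher and 241 (1.83%) were lower at d20. Without a minimum fold, 3447 genes (26.1%) were higher and 3590 (27.2%) lower, and the median over the genes tested was a log2 fold change of 0.00. Most of the differences that passed the test were thus small. Increases made up 49.0% of the genes past the test without a minimum fold and 60.7% of those at 2-fold or more, and they also reached further: the largest log2 fold change was 5.46 upwards and -3.30 downwards. Fold changes are differences of log2(value + 1), fitted with limma and given with the standard error, and they understate the change of genes with low values. Non-overlap of the days was common, with every d20 library above every d1 library in 29.0% of all genes tested and below in 29.7%, and the separation of single genes given below is read against these shares. In what follows a gene rose or fell where its adjusted p was under 0.05, and the 2-fold step is named where it was also met. Counts of list members that rose or fell are read against the 26.1% and 27.2% of all genes.

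**Figure D1:**
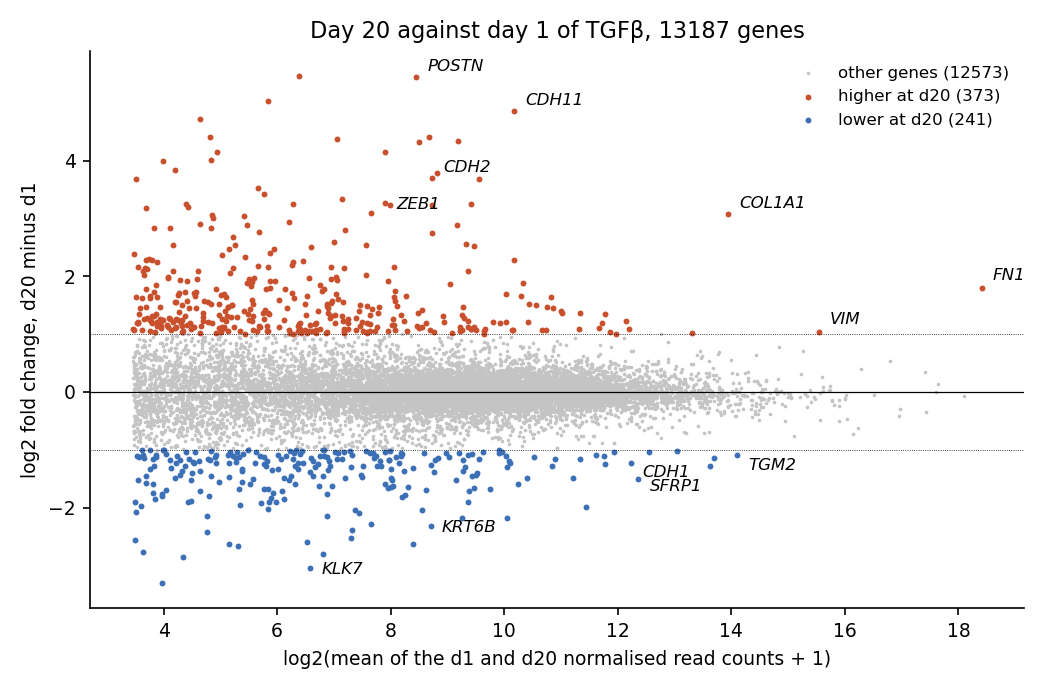
Log2 fold change of d20 over d1 (y axis) against the log2 mean normalised read count of both days (x axis) for the 13187 genes tested, one point per gene. The 373 genes higher at d20 (orange) reach beyond 5 on the log2 scale and include well-expressed matrix genes such as *COL1A1* and *FN1*, while the 241 lower genes (blue) lie mostly between -1 and -3.

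Among genes called that averaged 50 or more on either day, the 12 that increased most were *DPT*, *POSTN*, *CADM3*, *CDH11*, *HHIP*, *GREM1*, *VCAN*, *FBLN5*, *COL1A2*, *CREB3L1*, *COL5A1* and *PTGIR*. Most of them encode matrix or secreted proteins. *POSTN*, which encodes the matricellular protein periostin, had values of 16.7, 14.4 and 12.9 at d1 and 662, 675 and 706 at d20 (log2 fold change 5.45 ± 0.12, adjusted p = 6.51e-27). The lowest d20 library lay far above every d1 library. *DPT*, the gene for the small matrix protein dermatopontin, had 5.23, 1.03 and 2.98 at d1 and 147, 155 and 186 at d20, so it was barely detected on the first day and was above 147 in every library of the later one. *CADM3*, a nectin-like adhesion molecule, had 2.09, 2.05 and 2.98 at d1 and 86.9, 127 and 117 at d20, with at most 3 reads in each d1 library, which makes it at least 36-fold higher. *HHIP*, a decoy receptor that binds Hedgehog ligands at the cell surface, was likewise at the floor of 3 reads at d1 and at least 17.3-fold higher at d20, with 1.05, 1.03 and 2.98 at d1 and 48.8, 52.6 and 57.8 at d20. These genes went from near absence to a clear signal in every library. *PTGIR*, the prostacyclin receptor, had 3.14, 3.08 and 0.99 at d1 and 65.7, 37.9 and 53.9 at d20 and was at least 17.1-fold higher. *CREB3L1*, a membrane-bound transcription factor known to act on collagen genes, had 17.8, 27.7 and 28.8 at d1 and 459, 424 and 464 at d20 (log2 fold change 4.16 ± 0.14, adjusted p = 2.55e-22). In each of these genes the ranges of both days were apart. Of all 373 genes, 8 had every d1 library at the floor, the others being *COL5A1*, *CYTL1*, *IGFL2*, *LOC646576* and *TIE1*.

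The 12 largest decreases were in *KLK7*, *NPNT*, *LZTS1*, *IGFBP2*, *CD86*, *DHRS3*, *A2ML1*, *SPRR1B*, *KRT6B*, *SCD5*, *MAL2* and *CASP14*. Several of these belong to the skin-like differentiation program of squamous epithelium. *KLK7*, a kallikrein protease of the shedding epidermis, had 128, 208 and 176 at d1 and 13.8, 22.1 and 23.5 at d20 (log2 fold change -3.05 ± 0.19, adjusted p = 3.91e-15). The highest d20 library was well below the lowest d1 library. *CASP14*, the caspase of cornifying keratinocytes, had 1045, 1017 and 957 at d1 and 227, 212 and 224 at d20 (log2 fold change -2.18 ± 0.06, adjusted p = 1.07e-24). *A2ML1*, a protease inhibitor of the same tissue, had 259, 289 and 258 at d1 and 45.6, 52.6 and 40.1 at d20. *NPNT*, which encodes nephronectin, a basement membrane ligand of integrins, had 213, 197 and 175 at d1 and 29.7, 32.6 and 20.6 at d20. None of these genes overlapped between the days. *IGFBP2*, an IGF-binding protein, had 644, 505 and 589 at d1 and 79.5, 104 and 93 at d20 (log2 fold change -2.64 ± 0.10, adjusted p = 3.17e-21). *MAL2*, a membrane protein of apical transport in polarized epithelium, had 1729, 1718 and 1742 at d1 and 337, 377 and 429.9 at d20. *CD86*, a costimulatory surface protein best known from antigen-presenting cells, had 74.3, 48.2 and 59.5 at d1 and 8.48, 7.37 and 10.8 at d20, and in untreated cells it stood at 7.4 ± 2.98 (SD, n = 3), so its level on the first day was the raised one. In these genes too all d20 libraries were below all d1 libraries. *DHRS3*, a retinaldehyde reductase, had 179.9, 129 and 163 at d1 and 32.9, 25.3 and 18.6 at d20. *SCD5*, a stearoyl-CoA desaturase, had 329, 346 and 317 at d1 and 55.1, 66.3 and 82.2 at d20. Neither gene had overlapping values between the days. *LZTS1*, a leucine zipper protein, had 64.8, 66.7 and 70.5 at d1 and 10.6, 12.6 and 6.85 at d20. Just outside both lists of 12 stood *FBN1*, with a log2 fold change of 3.79, and *SERPINB2*, with -2.14.

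**Figure D2:**
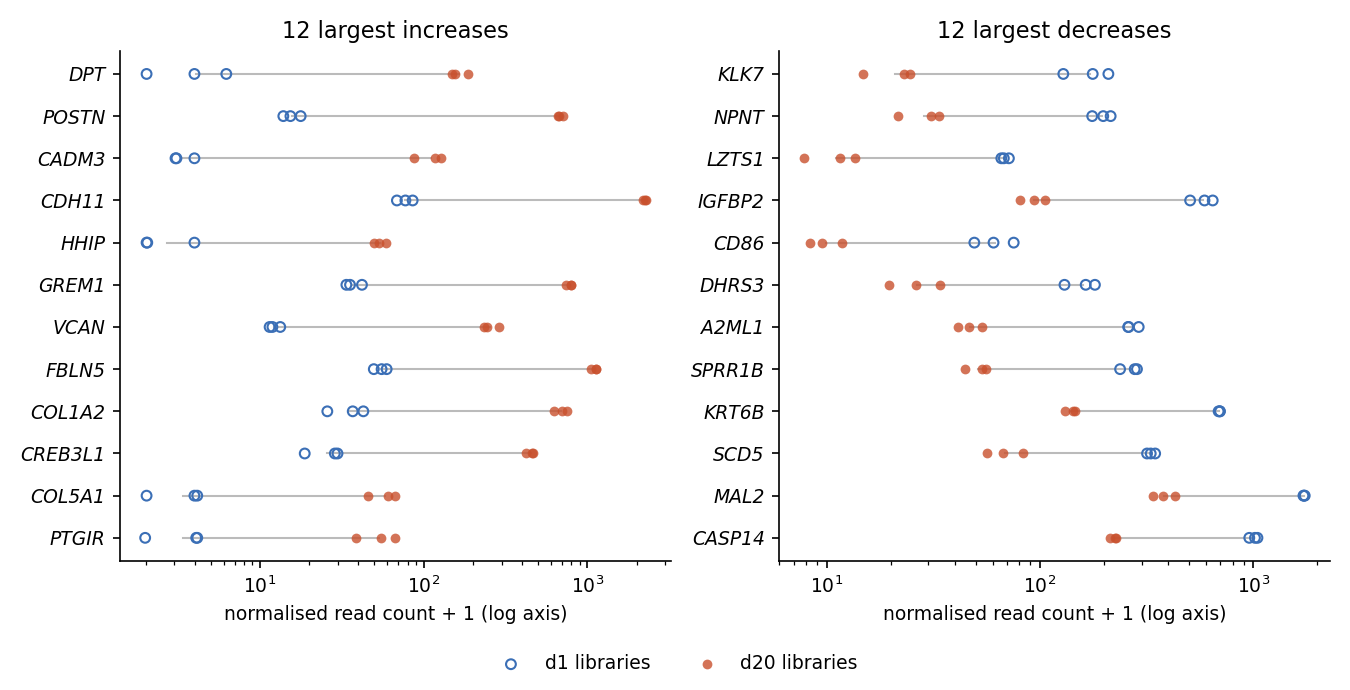
Normalised read count + 1 on a log axis (x axis) of the 12 genes that increased most and the 12 that decreased most (y axis), one point per library, with a grey line between the means of d1 and d20. The 3 d1 libraries (open blue) and the 3 d20 libraries (filled orange) do not overlap in any of the 24 genes, which were chosen for this difference.

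Transcription factors that drive EMT rose only in part. Of the 9 factors tested, 6 rose, 3 of them at least 2-fold, and 3 fell. *ZEB1*, a repressor of epithelial genes that binds E-box sequences, had 37.6, 41 and 55.6 at d1 and 423, 435 and 442 at d20 (log2 fold change 3.27 ± 0.12, adjusted p = 2.03e-21). *ZEB2*, its paralog, had 30.3, 24.6 and 33.7 at d1 and 129, 149 and 155 at d20 (log2 fold change 2.26 ± 0.15, adjusted p = 4.37e-14), and *FOXC2*, a forkhead factor of mesenchyme, had 10.5, 12.3 and 15.9 at d1 and 61.5, 54.7 and 62.7 at d20 (log2 fold change 2.14 ± 0.22, adjusted p = 9.12e-10). Each of these 3 genes had its d20 libraries well apart from those of d1. *TWIST1* rose less, with a log2 fold change of 0.65, and *TCF4* rose by 0.26. *TWIST2*, whose libraries overlapped between the days, had 0.33 (adjusted p = 0.0204), and without d20 library a its adjusted p was 0.284, without d1 library a 0.0799 and without d1 library b 0.0962. *TWIST2* also missed the threshold with DESeq2 (0.251) and with all 7 timepoints in one limma fit (0.124). *SNAI2*, the gene for SLUG, was already at 6279 ± 26.6 (SD, n = 3) at d1 and fell to 5171 ± 169 at d20 (log2 fold change -0.28 ± 0.03, adjusted p = 5.06e-10). *FOXC1* and *FOXQ1* fell too, with log2 fold changes of -0.56 and -1.16. *SNAI1* was near 0 on both days and was not tested, with values of 0, 0 and 3.97 at d1 and 2.12, 0 and 1.96 at d20. *PRRX1*, a homeobox factor also under the limit, had 1.05, 1.03 and 0.99 at d1 and 13.8, 18.9 and 13.7 at d20.

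Cadherins, the calcium-dependent adhesion proteins that hold cells together, differed in direction, with 4 of 6 higher and 2 lower. *CDH2*, N-cadherin of mesenchymal and neural cells, had 60.7, 58.5 and 58.5 at d1 and 797, 798 and 751 at d20 (log2 fold change 3.70 ± 0.08, adjusted p = 6.51e-27), a ratio of the means of 13.2. *CDH11*, cadherin 11 of mesenchymal cells, had 84.7, 67.7 and 76.4 at d1 and 2184, 2259.6 and 2269.8 at d20 (log2 fold change 4.86 ± 0.07, adjusted p = 2.64e-32), a ratio of 29.3. Both were separated between the days in every library. *CDH1*, E-cadherin of adherens junctions, had 6781, 6904 and 6463 at d1 and 2838, 2910.0 and 2857 at d20 (log2 fold change -1.23 ± 0.03, adjusted p = 5.69e-26). The d20 values of *CDH1* were uniform and all below the d1 values, but the transcript was still abundant. *CDH3*, P-cadherin of basal cells, fell (-0.59), while *CDH13* and *CDH4* rose (0.71 and 0.52 on the log2 scale). *CDH6* was at most at a few reads on both days. Between d1 and the untreated cells *CDH1* was close, with 7195 ± 216 (SD, n = 3) at d0 and 6716 ± 227 at d1, while *CDH2* had gone from 11 ± 2.49 to 59.2 ± 1.25.

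Collagens of the interstitial matrix mostly rose. Of 14 tested, 12 rose and 1 fell, 11 rose at least 2-fold, and the median log2 fold change was 2.53, where the median of all genes was 0.00. *COL1A1*, the α1 chain of type I collagen, had 3477, 3255 and 3271 at d1 and 29587, 27336 and 27776 at d20 (log2 fold change 3.08 ± 0.03, adjusted p = 4.37e-37). *COL1A2*, the α2 chain of the same fibril, had 41.8, 35.9 and 24.8 at d1 and 748, 699.9 and 625 at d20 (log2 fold change 4.33 ± 0.13, adjusted p = 6.46e-24). Both chains were thus separated on every library, *COL1A1* with a ratio of the means of 8.47 and *COL1A2* with 20.2. *COL3A1*, of type III collagen, had 7.32, 11.3 and 6.95 at d1 and 92.2, 112 and 93 at d20 (log2 fold change 3.42 ± 0.22, adjusted p = 1.52e-14). *COL5A1*, a fibril-nucleating chain, was at the floor at d1 and at least 18.6-fold higher at d20, with 3.14, 1.03 and 2.98 at d1 and 65.7, 60.0 and 45 at d20. The 3 chains of type VI collagen, a microfibril at the cell surface, rose together, *COL6A1* by 2.54, *COL6A2* by 2.94 and *COL6A3* by 2.75 on the log2 scale. *COL8A1* (2.52), *COL5A3* (2.15), *COL5A2* (1.36) and *COL13A1* (1.05) also rose at least 2-fold. *COL12A1* rose by 0.26, *COL27A1* had a log2 fold change of 0.00 (adjusted p = 0.944), and *COL16A1* had -0.09 (adjusted p = 0.00545, and 0.192 with all 7 timepoints in one fit).

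Fibronectin and the matricellular and elastic fibre proteins, which organise the matrix around collagen, followed. Of 23 tested, 18 rose and 2 fell, 10 rose at least 2-fold, and the median was 0.80. *FN1*, fibronectin, had 158588, 158897 and 150244 at d1 and 546116, 531997 and 539815 at d20 (log2 fold change 1.79 ± 0.03, adjusted p = 2.60e-32). All 3 later libraries were above all earlier ones. *VCAN*, the proteoglycan versican, had 10.5, 12.3 and 10.9 at d1 and 243, 234 and 286 at d20 (log2 fold change 4.38 ± 0.16, adjusted p = 3.81e-21). *FBLN5*, fibulin 5 of elastic fibres, had 54.4, 58.5 and 48.6 at d1 and 1137, 1047 and 1132 at d20 (log2 fold change 4.34 ± 0.08, adjusted p = 1.43e-28). Neither gene overlapped between the days. Fibrillin genes, which encode the microfibrils on which elastin is laid and latent TGFβ is held, rose as well, *FBN1* with 59.6, 56.4 and 64.5 at d1 and 830.0, 844 and 853 at d20 and *FBN2* with a log2 fold change of 2.59. *BGN*, the small proteoglycan biglycan, had 29.3, 25.6 and 18.9 at d1 and 265, 265 and 233 at d20 (log2 fold change 3.34 ± 0.15, adjusted p = 6.11e-19), and *SPP1*, osteopontin, rose from 9.52 ± 0.358 to 77.3 ± 4.61 (SD, n = 3 each). Several members rose by less than 2-fold: *THBS1* rose by 0.54, *SPARC* by 0.59, *CTGF* by 0.81 and *TNC* by 0.38 on the log2 scale. *TGFBI*, a TGFβ-induced matrix protein, fell (log2 fold change -0.35 ± 0.02, adjusted p = 8.23e-14), with means of 197808 ± 5699.6 at d1 and 154733 ± 2215 at d20. *MATN2* had -0.41 (adjusted p = 0.0491), which missed the threshold with edgeR, with DESeq2 and without any one library other than d20 library a, with adjusted p up to 0.173 among those left out.

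Enzymes that modify collagen rose in smaller steps, 11 of 17 tested, with 2 lower. *LOXL1*, a lysyl oxidase that crosslinks elastin and collagen, had 60.7, 64.6 and 60.5 at d1 and 199, 183 and 175 at d20 (log2 fold change 1.57 ± 0.12, adjusted p = 3.31e-13), *PLOD2*, a collagen lysyl hydroxylase, had 2939, 3084 and 2975 at d1 and 6285, 6300.0 and 6526 at d20 (log2 fold change 1.09 ± 0.03, adjusted p = 9.18e-25), and *LOX* rose by 0.93 on the log2 scale. *TGM2*, transglutaminase 2, which crosslinks fibronectin, went the other way, with 24283, 23951 and 23772 at d1 and 11471, 10752 and 11387 at d20 (log2 fold change -1.10 ± 0.03, adjusted p = 2.41e-26), though its d20 mean was still far above the untreated 231 ± 14.9 (SD, n = 3). Basement membrane genes split by chain. Of 18 tested, 8 rose and 5 fell: the type IV collagens *COL4A1* (0.69) and *COL4A2* (0.64) and the laminin chains *LAMB1* (0.62) and *LAMC1* (0.49) rose, while *LAMA3* (-0.63) and *LAMB3* (-0.51) of laminin-332 and *COL17A1* (-0.50), all from epithelial anchoring complexes, fell. *NID1*, nidogen, was the one member past 2-fold (log2 fold change 1.63 ± 0.38, adjusted p = 0.000511), at a low level of 4.43 ± 0.693 at d1 and 16.4 ± 5.22 at d20 (SD, n = 3 each).

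Matrix proteases and their inhibitors moved both ways, with 12 of 25 higher and 6 lower. *MMP2*, a gelatinase of stromal cells, had 413, 398 and 379 at d1 and 1944, 1912 and 1905 at d20 (log2 fold change 2.27 ± 0.05, adjusted p = 5.50e-28), and *TIMP2*, which both inhibits it and takes part in its activation, had 458, 518 and 510.1 at d1 and 1579, 1591 and 1644 at d20 (log2 fold change 1.70 ± 0.05, adjusted p = 3.58e-24). Protease and inhibitor were both separated between the days. *ADAMTS12* rose by 1.97 and *MMP16* by 3.25, the last from a d1 mean of 3.07 ± 1.07. *TIMP3* fell (log2 fold change -1.09 ± 0.03, adjusted p = 1.37e-23), and so did *SERPINB2*, the plasminogen activator inhibitor 2, with 215, 186 and 171 at d1 and 44.5, 46.3 and 36.2 at d20 (log2 fold change -2.14 ± 0.13, adjusted p = 5.35e-15). *MMP9* (-0.04, adjusted p = 0.425) did not pass the test. Among the integrins, the matrix receptors, 5 of 13 rose and 6 fell. *ITGA2*, the α chain of a collagen receptor, had 5283, 5369 and 5190.2 at d1 and 2482, 2663 and 2585 at d20 (log2 fold change -1.04 ± 0.03, adjusted p = 1.38e-23), and *ITGB8* and *ITGB6*, β chains of integrins that free latent TGFβ, fell (-1.24 and -0.69 on the log2 scale). *ITGB3* (1.05) and *ITGA10* (0.93) rose, and *ITGB1* had 0.03 (adjusted p = 0.304).

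Of 24 genes for contractile and actin-binding proteins, 16 rose and 3 fell, with a median of 0.28. *TAGLN*, the smooth muscle protein SM22, had 862, 885 and 883 at d1 and 2776, 2652 and 2764 at d20 (log2 fold change 1.64 ± 0.04, adjusted p = 8.91e-27). *MYL9*, a myosin regulatory light chain, had 118, 118 and 127 at d1 and 323, 287 and 329 at d20 (log2 fold change 1.36 ± 0.09, adjusted p = 1.95e-14). *VIM*, vimentin, the intermediate filament of mesenchymal cells, had 31358, 30834 and 31609.8 at d1 and 65859.7, 61979 and 63607 at d20 (log2 fold change 1.03 ± 0.02, adjusted p = 3.13e-26). In these genes every d20 library exceeded every d1 library, and the other members that rose did so by less than 2-fold, such as *ACTA2* (0.45), *MYLK* (0.46) and *TPM2* (0.38). Surface markers used for stem-like mesenchymal breast cells gave 8 of 14 higher and 3 lower. *THY1* (CD90) rose (log2 fold change 1.23 ± 0.03, adjusted p = 2.13e-26), *CD24*, whose loss marks the CD44-high CD24-low profile, had 1652, 1529 and 1467 at d1 and 637, 637 and 700.1 at d20 (log2 fold change -1.23 ± 0.05, adjusted p = 2.28e-20), and *CD44* itself fell by 0.33. Untreated cells had *CD24* values of 660, 631 and 703, so its level at d20 was near the untreated one and that at d1 was raised. *ALDH1A3*, an aldehyde dehydrogenase, had 1067, 1027 and 1014 at d1 and 270.3, 264 and 289 at d20 (log2 fold change -1.91 ± 0.06, adjusted p = 8.08e-24).

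**Figure D3:**
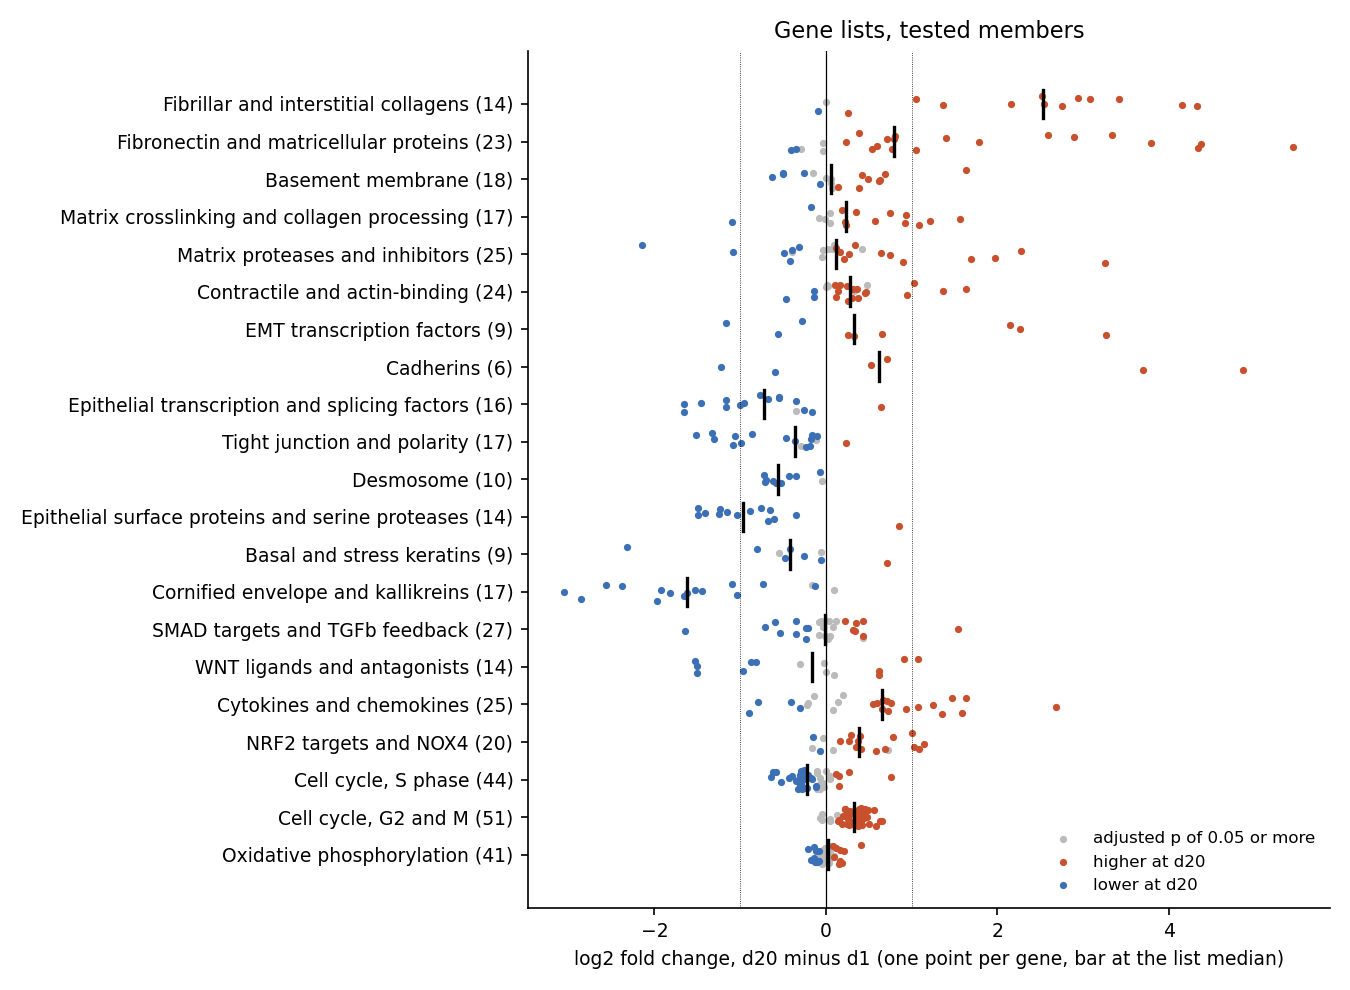
Log2 fold change of d20 over d1 (x axis) for the tested members of 21 gene lists (y axis, number of genes in brackets), one point per gene, orange where higher and blue where lower at an adjusted p under 0.05, with a black bar at the list median. Of the 21 lists shown, the collagens lie furthest to the right with a median of 2.53 and the cornified envelope genes furthest to the left with -1.62.

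Epithelial transcription and splicing factors fell almost throughout. Of 16 tested, 14 fell, 6 of them at least 2-fold, and 1 rose, with a median of -0.72. *GRHL2*, a grainyhead factor that keeps epithelial genes open and represses *ZEB1*, had 1085, 1080.0 and 1048 at d1 and 329, 359 and 332 at d20 (log2 fold change -1.65 ± 0.05, adjusted p = 1.19e-22). *EHF*, an ETS factor of epithelium, had 482, 505 and 452 at d1 and 160.1, 150.5 and 145 at d20 (log2 fold change -1.65 ± 0.08, adjusted p = 2.73e-18). *TFAP2C*, an AP-2 factor, had 108, 116 and 107 at d1 and 41.3, 42.1 and 35.2 at d20 (log2 fold change -1.46 ± 0.15, adjusted p = 4.03e-10). Every d20 library of these factors was below every d1 library. *ELF3* (-1.17), *GRHL1* (-1.17) and *OVOL1* (-0.95) fell too, and *OVOL2* fell from 106 ± 8.74 to 52.6 ± 4.06 (SD, n = 3 each). *ESRP1*, which directs epithelial splicing, fell by 0.77 on the log2 scale, and *ESRP2* by 0.26. *KLF4* was the one that rose (log2 fold change 0.64 ± 0.06, adjusted p = 1.20e-10).

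Tight junction and polarity genes, which seal the layer and set its apical side, fell in 14 of 17 tested, 5 at least 2-fold, and 1 rose. *CRB3*, the crumbs protein of the apical membrane, had 101, 97.4 and 126 at d1 and 40.3, 30.5 and 41.1 at d20 (log2 fold change -1.52 ± 0.16, adjusted p = 1.08e-09). *CLDN4*, a claudin, had 369, 352 and 373 at d1 and 154, 148 and 132 at d20 (log2 fold change -1.33 ± 0.08, adjusted p = 5.95e-15), and *OCLN*, occludin, had 140.2, 139 and 151 at d1 and 59.4, 57.9 and 54.8 at d20 (log2 fold change -1.31 ± 0.12, adjusted p = 1.26e-10). None of these overlapped between the days. *LLGL2* (-1.06) and *MARVELD3* (-1.08) fell at least 2-fold, while the scaffold *TJP1* had -0.10 (adjusted p = 0.00536, and 0.335 with all 7 timepoints in one fit). *CLDN1*, the one member higher, had 0.23 (adjusted p = 0.0285), which missed the threshold with DESeq2 (0.110) and without d1 library b or c or d20 library b or c (0.0661 to 0.116). With all 7 timepoints in one fit the limma adjusted p of *CLDN1* was 0.588. Desmosome genes, which anchor keratin filaments at cell contacts, fell in 9 of 10, none of them 2-fold. *DSG2*, counted among the 9, had -0.07 and missed the threshold with all 7 timepoints in one fit (limma adjusted p = 0.126) and with quantile normalization (0.0635). It also missed it without d1 library a or b or d20 library b (0.0738 to 0.127). *DSC2*, a desmosomal cadherin, had 1785, 1802 and 1791 at d1 and 1037, 1142 and 1073 at d20 (log2 fold change -0.73 ± 0.04, adjusted p = 2.27e-16), *JUP*, plakoglobin, fell by 0.70, and *PKP1* (-0.05, adjusted p = 0.136) did not pass the test. Of 14 other epithelial surface proteins and serine proteases, 13 fell, 7 of them at least 2-fold, with a median of -0.96. *EPCAM*, the epithelial adhesion molecule, had 1061, 1074 and 1075 at d1 and 387, 404 and 416 at d20 (log2 fold change -1.41 ± 0.05, adjusted p = 2.34e-21). *ST14*, the membrane protease matriptase, had 3576, 3432 and 3449.6 at d1 and 1265, 1276 and 1166 at d20 (log2 fold change -1.50 ± 0.04, adjusted p = 7.49e-26), and *AP1M2*, the epithelial subunit of the clathrin adaptor for basolateral sorting, had 2092, 2018 and 1883 at d1 and 707, 699 and 729.5 at d20 (log2 fold change -1.49 ± 0.04, adjusted p = 4.83e-24). *S100A14* (-1.15) and *RAB25* (-1.04) fell as well, and *MUC1* rose (0.85) at a low level.

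ZEB and SNAI proteins bind the E-box CAGGTG, so the promoters of RefSeq (GRCh38.p14, 250 bases before to 50 after each start site) were searched for it on both strands. A promoter was listed for 10 of the 18 genes of the epithelial factor, junction and surface lists that fell at least 2-fold, and 7 of them (70.0%) held an E-box, against 44.7% of the genes with a promoter among all called lower and 24.0% of those among all tested. Counted over promoters, these were 8 of 14 (57.1%). The listed promoters of *CLDN4*, *EHF* and *GRHL1* held none, and *CD24* had listed promoters with and without an E-box. Over all 241 genes called lower, 37.3% of 209 promoters (152 genes) held one, against 20.2% of 396 promoters (247 genes) of the genes called higher and 18.5% of the 13513 promoters (9165 genes) of all genes tested. The AP-1 site TGANTCA was in 12.9% of the promoters of lower genes, 8.33% of those of higher genes and 5.43% of all. The TEAD site GGAATG was in 14.4%, 15.7% and 11.7%, and the SMAD palindrome GTCTAGAC in 0%, 0.253% and 0.126%. Motifs were counted separately, without regard to overlap, these shares were not tested, and a match is a run of letters and not a bound site. The 250 bases before the start site are shown for 3 of the genes that fell, chosen for their E-boxes, 5′ to 3′ on the strand of the gene, with each CAGGTG or its reverse complement CACCTG in capitals.
CRB3: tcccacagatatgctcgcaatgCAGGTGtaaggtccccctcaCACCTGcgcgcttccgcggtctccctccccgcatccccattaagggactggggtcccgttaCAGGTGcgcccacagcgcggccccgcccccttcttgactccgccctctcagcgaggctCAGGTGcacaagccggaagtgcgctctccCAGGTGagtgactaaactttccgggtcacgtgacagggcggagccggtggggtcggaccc
AP1M2: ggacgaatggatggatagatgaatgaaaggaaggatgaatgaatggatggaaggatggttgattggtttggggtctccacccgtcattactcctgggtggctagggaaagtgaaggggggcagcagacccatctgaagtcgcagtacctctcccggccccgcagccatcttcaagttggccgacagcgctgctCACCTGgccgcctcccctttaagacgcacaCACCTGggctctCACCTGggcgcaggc
RAB25: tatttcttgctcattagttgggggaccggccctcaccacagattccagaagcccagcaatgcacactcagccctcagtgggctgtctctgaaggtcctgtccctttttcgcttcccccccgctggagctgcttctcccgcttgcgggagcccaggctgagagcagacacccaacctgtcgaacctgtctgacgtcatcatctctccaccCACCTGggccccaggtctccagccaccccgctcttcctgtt
The *CRB3* window is chr19:6464021-6464270 on the plus strand and holds 5 E-boxes, beginning 228, 208, 147, 89 and 60 bases before the start site. The *AP1M2* window is chr19:10587313-10587562 on the minus strand, with 3 E-boxes at 57, 27 and 15 bases before the start. The *RAB25* window is chr1:156060910-156061159 on the plus strand, with 1 E-box at 41 bases before the start and another, not shown, 37 bases after it. *RAB25*, a small GTPase of apical recycling, had values of 1071, 1079 and 1046 at d1 and 526, 533 and 499 at d20.

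Keratins, the intermediate filaments of epithelium, did not move as one. Of 9 basal and stress keratins, 6 fell and 1 rose. *KRT6B* had 696, 696 and 687 at d1 and 142, 144 and 129 at d20 (log2 fold change -2.32 ± 0.07, adjusted p = 2.80e-23), and its reads can be shared with *KRT6A* and *KRT6C*. *KRT15* (-0.80), *KRT6A* (-0.48) and *KRT5* (-0.41) fell by less than 2-fold. *KRT14*, counted among those that fell, had -0.06 (adjusted p = 0.0464), which missed the threshold without d1 library a or b or d20 library b or c (0.125 to 0.162). It also missed it with all 7 timepoints in one fit (0.733), a pseudocount of 10 (0.0577) and edgeR (0.0508). *KRT17*, a keratin of stressed and basal cells with reads that can be shared with *KRT14* and *KRT16*, rose, with 30367, 29411 and 29539.7 at d1 and 50468, 47899 and 47786 at d20 (log2 fold change 0.71 ± 0.02, adjusted p = 1.13e-21). Among 6 simple and mucosal keratins, *KRT13* (-1.79), *KRT18* (-0.61) and *KRT7* (-0.24, past the threshold in neither the quantile normalized fit nor the fit with all 7 timepoints) fell and *KRT8* rose (0.50), so the usual partners *KRT8* and *KRT18* went opposite ways. The program of cornification fell more evenly. Of 17 envelope and kallikrein genes tested, 15 fell, 13 at least 2-fold, and none rose, with a median of -1.62. *SERPINB3*, counted among those that fell, had -1.52, but missed the threshold with DESeq2 (adjusted p = 0.462) and edgeR (0.0615). Without d20 library b its log2 fold change was -0.36 (limma adjusted p = 0.470). *SPRR1B*, a cross-linked envelope protein whose reads can be shared with *SPRR1A*, had 236, 277 and 284 at d1 and 43.5, 52.6 and 54.8 at d20 (log2 fold change -2.38 ± 0.12, adjusted p = 1.74e-17). *CALML3*, a calmodulin-like protein of epithelium, had 464, 443 and 458 at d1 and 122, 117 and 147 at d20 (log2 fold change -1.82 ± 0.09, adjusted p = 3.56e-18), and *IVL*, involucrin, fell by 1.03. The kallikreins *KLK5* (-1.66), *KLK8* (-1.93) and *KLK10* (-1.96) fell as well. Every library of these kallikreins was lower at d20 than any at d1. A further 14 listed genes of this program were under the limit on the mean.

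Direct targets and feedback regulators of TGFβ, listed with its ligands, receptors and latent binding proteins, moved both ways between the days. Of 27 tested, 7 rose and 9 fell, shares near the 26.1% and 27.2% of all genes. At least 2-fold changes were 1 in each direction, the log2 fold changes ran from -1.64 to 1.54, and the median log2 fold change was -0.01. The summed value went from between 202127 and 212016 to between 237349 and 253436, while the mean log2(value + 1) over these genes was 9.98 to 10.06 in the libraries of d1 and 9.97 to 10.02 in those of d20, against 8.81 ± 0.04 (SD, n = 3) in untreated cells. *SMAD7*, the inhibitory SMAD that dampens the receptor, had 712, 680.0 and 640.1 at d1 and 525, 543 and 521 at d20 (log2 fold change -0.35 ± 0.05, adjusted p = 1.70e-06), and *SKIL* (-0.34) and *SMURF1* (-0.23), further inhibitors, fell slightly. *PMEPA1* rose by 0.22. The ligands diverged. *TGFB2* had 56.5, 61.5 and 67.5 at d1 and 153, 194 and 201 at d20 (log2 fold change 1.54 ± 0.13, adjusted p = 3.73e-12), while *TGFB1* had a log2 fold change of -0.01 (adjusted p = 0.818). *LTBP3*, which keeps the ligand latent in the matrix, had 369, 394 and 408 at d1 and 127, 132 and 115 at d20 (log2 fold change -1.64 ± 0.09, adjusted p = 4.22e-17), and *LTBP2* fell (-0.59) where *LTBP4* rose (0.43). The receptor gene *TGFBR2* rose by 0.35, and *TGFBR1* had 0.04 (adjusted p = 0.567).

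In the neighbouring pathways secreted antagonists were among the members that changed. *GREM1*, gremlin, which traps BMP ligands, had 34.5, 41 and 32.8 at d1 and 799, 744 and 796 at d20 (log2 fold change 4.40 ± 0.10, adjusted p = 6.51e-27). *FST*, follistatin, which traps activins, had 424, 422 and 453 at d1 and 153, 193 and 156 at d20 (log2 fold change -1.38 ± 0.08, adjusted p = 3.13e-15), so these antagonists moved in opposite directions. *BMP2* and *BMP6* fell (-0.78 and -1.57), *BMP4* rose (0.95), and the BMP targets *ID1* (0.57) and *ID3* (0.54) rose. Of 14 WNT ligands, antagonists and targets, 4 rose and 6 fell. The WNT list held an antagonist and several ligands among those that fell. *SFRP1*, a secreted WNT antagonist, had 8053, 7708 and 7534 at d1 and 2729, 2656 and 2815 at d20 (log2 fold change -1.51 ± 0.03, adjusted p = 5.55e-28). *WNT7B* had 895, 829.7 and 811 at d1 and 286, 310.5 and 284 at d20 (log2 fold change -1.52 ± 0.06, adjusted p = 2.39e-20), and *WNT9A* (-1.50) and *WNT7A* (-0.97) fell, while *DKK1*, another antagonist, rose (log2 fold change 1.08 ± 0.06, adjusted p = 1.24e-15). Of 29 growth factor receptors and ligands, 12 rose and 11 fell, with receptors on both sides. *PDGFRB*, a receptor of mesenchymal cells, had 20.1 ± 4.37 at d1 and 92.5 ± 8.52 at d20 (SD, n = 3 each, log2 fold change 2.16 ± 0.19, adjusted p = 1.57e-11), and *FGFR1* had 48.1, 48.2 and 40.7 at d1 and 136, 126 and 138 at d20 (log2 fold change 1.53 ± 0.14, adjusted p = 2.80e-11). *FGFR3* (-1.10), *ERBB3* (-0.97) and *FGFR2* (-0.59), receptors of epithelium, fell, *AXL* rose (0.87), and *EGFR* had 0.03 (adjusted p = 0.455). *IGFBP3* and *IGFBP4* rose by 1.34 and 1.65. *SLIT3*, a guidance ligand, had 243, 268 and 240.2 at d1 and 1118, 1061 and 1031 at d20 (log2 fold change 2.09 ± 0.06, adjusted p = 2.36e-24), and in its list of 24 guidance genes 9 rose and 12 fell.

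Proliferation genes were near one another on both days but not equal. The mean log2 level of the 44 genes of S phase was 10.43 ± 0.01 (SD, n = 3) at d1 and 10.25 ± 0.03 at d20, and that of the 51 genes of G2 and M was 11.27 ± 0.01 and 11.59 ± 0.03. At d15, in comparison, the levels were 8.64 ± 0.01 and 10.24 ± 0.02. Of the S phase genes 28 fell and 5 rose, and of the G2 and M genes 45 rose and none fell, with medians of -0.22 and 0.33 and no gene past 2-fold. *MCM6*, of the replicative helicase, had 3124, 3171 and 2988 at d1 and 2065, 2075 and 2069 at d20 (log2 fold change -0.58 ± 0.03, adjusted p = 4.26e-16). *CCNE2*, cyclin E2 of the entry into S phase, had 311, 333 and 311 at d1 and 191, 214 and 215 at d20 (log2 fold change -0.62 ± 0.08, adjusted p = 5.76e-08). Against them, *TOP2A*, which untangles chromosomes before mitosis, had 10890.3, 11029 and 10602 at d1 and 16703, 16846 and 17507 at d20 (log2 fold change 0.65 ± 0.03, adjusted p = 2.93e-20), and *AURKA*, a spindle kinase, had 2296, 2309.6 and 2224 at d1 and 3237, 3386 and 3424 at d20 (log2 fold change 0.56 ± 0.03, adjusted p = 1.06e-15). In these 4 genes the libraries of both days were apart. *MKI67*, the common marker of cycling cells, rose by 0.33, from 9645 ± 547 to 12122 ± 226 (SD, n = 3 each). The CDK inhibitor *CDKN1A* (p21) had 3103, 2917 and 3025 at d1 and 6418, 5529 and 5456 at d20 (log2 fold change 0.94 ± 0.04, adjusted p = 2.12e-19), *CDKN2C* rose (0.86), and *MYC* had 5038, 4883 and 5227 at d1 and 2727, 3045 and 2430.4 at d20 (log2 fold change -0.89 ± 0.05, adjusted p = 2.75e-17). *TERT*, which such lines carry as a transgene, had 0.02 (adjusted p = 0.574).

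**Figure D4:**
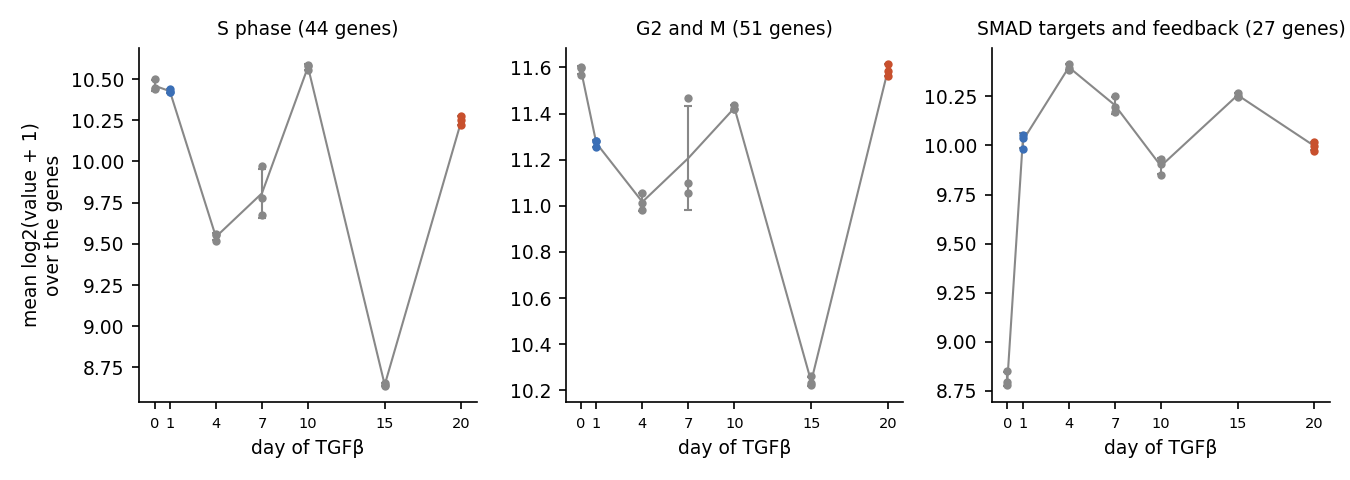
Mean log2(normalised read count + 1) (y axis) over the tested genes of 3 lists on each day of TGFβ (x axis), with points for the 3 libraries, the line through the means and bars for the SD; each panel has its own y range, which does not begin at 0. Between d1 (blue) and d20 (orange) the S phase level is 10.43 and 10.25, the G2 and M level 11.27 and 11.59, and the SMAD target level 9.98 to 10.06 and 9.97 to 10.02 over the libraries.

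Among inflammatory genes, 15 of 25 cytokine and acute phase genes tested rose, 7 at least 2-fold, and 4 fell, with a median of 0.66. *CXCL1*, a neutrophil chemokine, had 117, 139 and 129 at d1 and 436, 339 and 433 at d20 (log2 fold change 1.63 ± 0.09, adjusted p = 7.02e-16), *IL8* had 26.1, 35.9 and 33.7 at d1 and 94.3, 85.2 and 114 at d20 (log2 fold change 1.59 ± 0.17, adjusted p = 1.31e-09), and *TNFAIP6*, a hyaluronan-binding protein, rose by 2.68 on the log2 scale. *IL32* (1.47), *CSF2* (1.25) and *C3* (1.07) also rose at least 2-fold, while *IL1A* (0.09, adjusted p = 0.069) and *IL1B* (-0.20, adjusted p = 0.188) did not pass the test. Of 22 interferon-stimulated genes 8 rose and 4 fell, none 2-fold, but 3 and 1 passed with all 7 timepoints in one fit and 6 and 3 with DESeq2. Of 14 genes of MHC class I presentation 9 rose and 1 fell, with none at 2-fold. Of 20 immediate early genes 7 rose and 8 fell, with 6 and 4 in the fit of all 7 timepoints. *FOS* had 298, 318 and 296 at d1 and 158, 115 and 107 at d20 (log2 fold change -1.28 ± 0.11, adjusted p = 6.23e-12), and the MAPK phosphatases *DUSP6* and *DUSP4*, read-outs of ERK signalling, fell (-0.96 and -0.83). Other members were higher at d20, *JUND* with 478, 490 and 572 at d1 and 811, 665 and 674 at d20. *ATF3* had 199, 199 and 187 at d1 and 257, 263 and 275 at d20. The largest log2 fold change of the list was an increase of 3.19, in a gene with low values.

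Redox and metabolic genes differed by list. Of 20 NRF2 targets, which protect against oxidants, 14 rose, 4 of them at least 2-fold, and 2 fell, with a median of 0.38. *HMOX1*, heme oxygenase, had 209, 229.7 and 219 at d1 and 477, 483 and 501 at d20 (log2 fold change 1.15 ± 0.07, adjusted p = 2.30e-15), and the cystine transporter *SLC7A11* had 2578, 2659 and 2705 at d1 and 5048, 5276 and 5628 at d20 (log2 fold change 1.00 ± 0.03, adjusted p = 3.68e-22). The ferritin chains *FTL* and *FTH1* rose by 1.02 and 0.78, and both have many pseudogenes that can share reads. In the list of 25 ER folding and ATF4 targets 13 rose and 9 fell. The amino acid response genes *CHAC1* (1.33), *SESN2* (0.74), *PSAT1* (0.42) and *ASNS* (0.42) rose, and the chaperones *HSPA5* (-0.44), *HSP90B1* (-0.38) and *CALR* (-0.37) fell. Cholesterol and fatty acid synthesis fell in 18 of 28 and rose in 4, with a median of -0.13 and none past 2-fold, *SCD* by 0.47 and *HMGCS1* by 0.41. Of 31 glycolysis and hypoxia genes 16 fell and 5 rose, but *ENO1* and *PKM2* among the 16 had the opposite sign with quantile normalization. With all 7 timepoints in one fit, *ENO1*, *ALDOA*, *PGK1* and *PFKFB3* did not pass (limma adjusted p = 0.118, 0.110, 0.154 and 0.0547). *CA9*, a hypoxia-induced carbonic anhydrase, was the one past 2-fold, with 483, 441 and 494 at d1 and 147, 136 and 127 at d20 (log2 fold change -1.78 ± 0.08, adjusted p = 1.23e-18). Of 41 subunits of oxidative phosphorylation 9 rose and 11 fell, shares near the 26.1% and 27.2% of all genes, with a median of 0.02, and 5 fell with all 7 timepoints in one fit.

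Markers of other cell types were read beside the matrix genes. Of the 12 fibroblast markers 8 were tested and 7 of them rose, and their summed value was between 11775 and 12432 at d1 and between 40601 and 42838 at d20. *COL1A1*, *THY1* and *PDPN* held most of that sum, and *PDPN*, the gene for podoplanin, had -0.03 (adjusted p = 0.426). *DCN* and *TCF21*, defining genes of tissue fibroblasts, were at 0 in all 6 libraries and *LUM* had 0, 1.03 and 0 at d1 and 0, 0 and 0 at d20. Of 8 leukocyte markers 2 were tested, *CSF1R*, which fell (-0.89), and *CD68*, which rose (0.28). The pan-leukocyte *PTPRC* and the B-cell gene *MS4A1* were at 0 in all 6 libraries, *CD14* of monocytes had 6.28, 12.3 and 15.9 at d1 and 11.7, 1.05 and 8.81 at d20, and *ITGAM* had 6.28, 1.03 and 1.98 at d1 and 1.06, 0 and 3.92 at d20. The sum of the list went from between 1221 and 1371 to between 1043 and 1108. Of 8 endothelial markers 3 were tested, and *TIE1*, with 1.05, 0 and 1.98 at d1 and 43.5, 45.3 and 52.9 at d20, was at least 15.4-fold higher, while *PECAM1* had -0.12 (adjusted p = 0.788). *KDR*, a VEGF receptor under the limit on the mean, had 3.14, 6.15 and 6.95 at d1 and 10.6, 9.47 and 20.6 at d20, and *VWF* had 2.09, 9.23 and 9.92 at d1 and 3.18, 7.37 and 2.94 at d20. *CDH5* had 0, 0 and 0 at d1 and 1.06, 0 and 0 at d20, *CLDN5* and *EMCN* were at most 4.18 in any library, and the endothelial sum was 37.9 to 50.6 at d1 and 88.4 to 124 at d20. Of the 10 luminal markers 5 were tested, *KRT8* rose, and *KRT18* and *GATA3* fell, with sums of 13391 to 13866 and 13119 to 13530.4. Of 8 markers of the basal line, all tested, 6 fell and 1 rose, and none by 2-fold.

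The levels in untreated cells placed these differences in the whole course, as a description that shares the d1 and d20 libraries with the calls. Of the 373 genes higher at d20, 238 (63.8%) had an untreated mean below both days, 107 (28.7%) between them and 28 (7.51%) above both. Of the 241 lower genes, 128 (53.1%) had an untreated mean above both days, 66 (27.4%) between them and 47 (19.5%) below both. The commonest pattern in both directions was thus a level at d20 further from untreated cells than at d1. *COL1A1* went from 462 ± 15.6 at d0 to 3334 ± 124 at d1 and 28233 ± 1193 at d20 (SD, n = 3 each), and *EPCAM* from 2106 ± 52.4 to 1069.7 ± 7.93 and 402 ± 14.7. *SFRP1* and *CD24* were raised at d1 over untreated cells and lower again at d20: *SFRP1* stood at 3701 ± 85.8 at d0, 7765 ± 264 at d1 and 2734 ± 79.5 at d20, and *CD24* at 665 ± 36.4, 1549 ± 94 and 658 ± 36.5. The path between the days was not a straight one. At d10, 31.9% of the higher genes and 69.7% of the lower genes lay on the d20 side of the midpoint on the log2 scale, and at d7, where one library stood apart from the other 2, 49.1% and 34.0%. The highest mean of the 7 timepoints was at d20 for 188 of the 373 higher genes and at d15 for 140 of them.

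**Figure D5:**
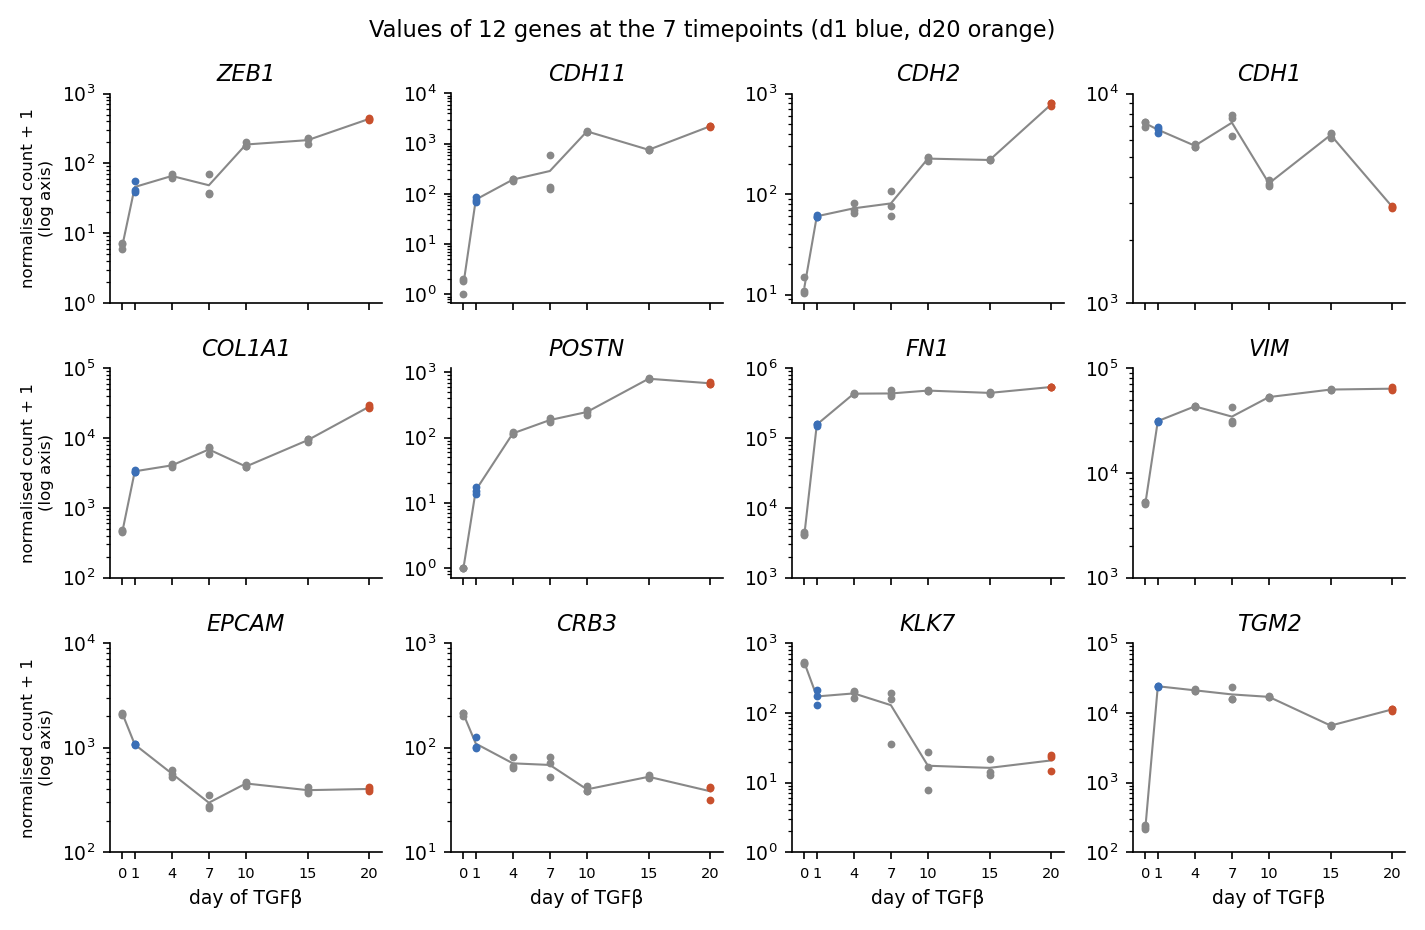
Normalised read count + 1 on a log axis (y axis, own range per panel) of 12 genes against the day of TGFβ (x axis), with a point for each of the 3 libraries per day and a line through the means. *ZEB1*, *CDH11*, *CDH2* and *COL1A1* have their highest mean at d20 (orange), *FN1* and *VIM* made most of their rise by d1 (blue) on this scale, and *CDH1* is close to its untreated level at d1 and lowest at d20.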

How the data were processed

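RNA was taken with Trizol from HMLE cells at 7 timepoints of TGFβ, and the 21 libraries were sequenced on an Illumina platform. The submitters' processing notes name STAR 2.7, Salmon 1.4 and hg19. The deposited values are a signal, reads per gene divided by one size factor per library and written with 2 decimals by the authors. Whole reads could be recovered from them for every value, and their totals were 18847917 to 22667754 per library. Libraries were grouped by the day in their labels, and libraries of a day are named a, b and c in column order.

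Genes with a mean of at least 10 over the 6 libraries of d1 and d20 were fitted with limma (3.58.1, R 4.3.3) on log2(value + 1) with a mean trend, without covariates, and p-values were adjusted by Benjamini-Hochberg over all genes tested. A gene was called at an adjusted p under 0.05 and a fold of at least 2. Genes with at most 3 reads in every d1 library were given a lower bound against that floor. The text names the 12 largest changes in each direction with a mean of at least 50 on either day, up to 5 members per list with the largest absolute change at the same minimum, and further members that complete a count or are the best known of their list, some of them chosen after their values were seen. The members and the gene lists were chosen with earlier results of these data known. Lists are described by counts and medians, with no set test. Alternatives included edgeR 4.0.16 and DESeq2 1.42.0 on the recovered reads. The script was tested on simulated data. Promoter sequences are from RefSeq and were matched by symbol. Tables and figures were made with Python 3.11.15, numpy 2.4.6, pandas 2.3.3 and matplotlib 3.10.9. Results for some genes and for 1 gene list are not reported here.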

Additional observations from a re-analysis of the deposited data

How the results depend on the processing

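No paired analysis was possible because libraries of a day are not numbered in the table. Of 216 results recomputed under the alternatives (3080 values), none changed direction. Of these 216, 188 were named genes, mostly picked for large changes, so a reversal among them was unlikely beforehand. Outside these results, *ENO1* (-0.12 to 0.05) and *PKM2* (-0.11 to 0.13) changed sign with quantile normalization. Of the 3080, 3021 stayed on their side of the threshold or within 1.5 times the reported count. The numbers of genes called moved by over 1.5 times with the filter on low values left out (613 higher and 398 lower of 18393 genes), with no minimum fold (3447 and 3590) and with at least 4-fold (83 and 24), each by construction. They were 263 and 168 with a pseudocount of 10, 386 and 246 with edgeR, and 377 and 239 with DESeq2, and without one library they ran from 364 to 393 and from 233 to 265. Increases made up 60.7% of the calls, 54.9% to 61.7% with other fits, scalings, filters, pseudocounts or 1 library left out, 49.0% with no minimum fold and 77.6% at 4-fold. Of 550 list genes past the test, 89 were not past it with all 7 timepoints in one fit, 40 with DESeq2, 11 with quantile normalization and 20 to 28 without one library; the cause was not tested. Among them, *KRT7* had a limma adjusted p of 0.181 with all 7 timepoints and 0.318 with quantile normalization.

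With 3 libraries a day at this depth, small shifts in abundant genes pass the test, while genes near the floor have wide errors. Every comparison rests on one cell line, one series of cultures and no culture of the same age without TGFβ. Near-identical genes (keratins, *SPRR1A* and *SPRR1B*, ferritins) can share reads.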

Other observations

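Some genes that were strongly raised by d1 were lower, though still raised, at d20. *TGM2* stood at 231 ± 14.9 (SD, n = 3 for each mean here) in untreated cells, 24002 ± 259 at d1 and 11203 ± 393 at d20. *LAMA3*, a chain of laminin-332, stood at 8369 ± 388, 93516 ± 2974 and 60520.0 ± 1469, and *ITGB6* at 1218 ± 16.6, 11346 ± 279 and 7034 ± 59. *TGFBI* stood at 13844 ± 227, 197808 ± 5699.6 and 154733 ± 2215. In all 4 genes the mean of d20 was several times that of untreated cells.

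Other genes had a lower mean at d1 than in untreated cells and rose again by d20. *GDF15*, a stress-induced cytokine, stood at 77.9 ± 14.7 in untreated cells, 37.5 ± 4.67 at d1 and 104 ± 12.5 at d20, and *BGN* at 65.8 ± 12.5, 24.6 ± 5.29 and 254 ± 18.5. *FTL*, the ferritin light chain, stood at 10099 ± 353, 6664 ± 355 and 13526 ± 306, and *C3* of complement at 1604 ± 66.9, 1093 ± 39.8 and 2299 ± 41.3.

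Some values at d10 were closer to d20 than those at d15. *FOS* stood at 249 ± 7.05 at d10, 2731 ± 151 at d15 and 126 ± 27.5 at d20. *CDKN1A* stood at 2742 ± 140.2, 23196 ± 429 and 5801 ± 536, and *COL8A1* at 995 ± 37.3, 164 ± 11 and 1207 ± 42.3. Over the genes tested, the root mean square log2 difference of the means was 0.416 between d10 and d20 and 0.747 between d15 and d20. These genes were chosen after their values were seen.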
